A study of Mus musculus with 4 samples.

Results

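The 8 genes described here are S100a8, S100a9, S100a4, S100a6, S100a10, S100a11, Slpi and Lcn2, out of 19059 genes counted in each cell. They were picked by name, with their levels across cell classes and libraries already known, so the levels below are a description and carry no test. The cells, sorted as viable and CD45+, came from tumors of MC38, a mouse colon carcinoma line, in humanized CTLA-4 mice (B-hCTLA-4, host strain C57BL/6), and were fixed and hybridized with barcoded probe sets (Chromium Flex). Per the records, MC38 cells were placed under the skin, mice were treated 3 times from tumors of about 100 mm3 on, tumors of 11 mice per group were pooled on day 8, and the age of the B-hCTLA-4 mice is not given in the sources used here. For its single-cell experiment the article gives lower doses of both antibodies, fewer tumors per group, another day of harvest and smaller tumors at the start of treatment.

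There were 4 groups with 1 library each: isotype control (hIgG1, 10 mg/kg), anti-human CTLA-4 (ipilimumab, human IgG1), anti-mouse FcgRII (AT130-2 mIgG1-N297A), and the combination of ipilimumab at 10 mg/kg with the FcgRII antibody at 20 mg/kg. These doses are those of the records, and the article's doses of both antibodies are lower. All groups carried the human CTLA-4 gene and the tumor. In the records of the 2 libraries with a single antibody, title and treatment field contradict each other, and which library received ipilimumab is unsettled. They are called CTLA-4-titled and FcgRII-titled by their titles. Where 4 values are given in a row below, they stand in the order isotype control, CTLA-4-titled, FcgRII-titled, combination. With 1 library per group, treatment and library cannot be told apart, no replicate error exists, and all intervals are 95% intervals that cover counting error only.

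S100 proteins are small calcium-binding proteins. S100a8 and S100a9 pair as calprotectin, which fills the cytosol of neutrophils, withholds zinc and manganese from microbes, and acts as an alarm signal through Tlr4 once released. Slpi inhibits neutrophil elastase and related serine proteases, and Lcn2 binds bacterial siderophores and so keeps iron from microbes. S100a10 is the partner of annexin A2 and S100a11 of annexin A1, while S100a4 and S100a6 are linked to cell movement and growth and are made by many cell types.

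The 4 libraries held 6097 to 8173 cells with medians of 14836 to 19115 unique molecular identifiers (UMIs) per cell, and 26785 cells were kept in all. Cells were clustered with the 8 genes left out of the clustering features, and clusters were named from marker lists that also leave them out. Neutrophil-like cells numbered 110, 91, 47 and 458, or 1.42%, 1.51%, 0.813% and 6.34% of the kept cells. Before the sort, the suspension had passed a density gradient made for lymphocytes, which can set how many neutrophils remain. Macrophage-like cells numbered 4462, 3636, 4170 and 4177, and monocyte-like cells 1012, 651, 406 and 624. Cells with both lymphocyte and macrophage markers, 7.89% to 13.1% of each library, were set apart and are not counted in a class. No whole cell barcode was shared between libraries, but 33.2% of cells came from a droplet that also held a cell of another library. Neutrophil-like cells carried the markers Csf3r and Cxcr2, with 18.4 UMIs per cell of Csf3r and 5.10 of Cxcr2 in isotype control and 15.3 and 4.88 in the combination. Other markers differed more. Of 14 neutrophil-list genes past a minimum level, 4 (Ngp, Retnlg, Lrg1 and Mmp8) were at least 2-fold lower in the combination and 0 higher. Neutrophil-like cells were small libraries, with medians of 2966 to 3479 UMIs against 16661 to 21885 in macrophage-like cells. Of the neutrophil-like cells 9.89% to 21.8% had at least 1% of their UMIs on a list of macrophage genes.

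On GRCm38, 6 of the 8 genes lie within 2960873 bases of chromosome 3. S100a8 (ENSMUSG00000056054, 90668978 to 90670035, plus strand) and S100a9 (ENSMUSG00000056071, 90692632 to 90695721, minus strand) are separated by 22596 bases and are transcribed toward each other. S100a4 (ENSMUSG00000001020, 90603771 to 90606045) and S100a6 (ENSMUSG00000001025, 90612882 to 90624181) lie before them, and S100a11 (ENSMUSG00000027907, 93520488 to 93526287) and S100a10 (ENSMUSG00000041959, 93555080 to 93564643) after them. Slpi (ENSMUSG00000017002, 164354070 to 164389095) and Lcn2 (ENSMUSG00000026822, 32384633 to 32388252) lie on the minus strand of chromosome 2.

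RefSeq promoter sequences (GRCm38.p6) matched 7 of the 8 genes, and the 250 bases before the start were searched on both strands for the C/EBP motif TTNCNNAA, the PU.1 motif GAGGAAG, the NF-kB motif, the AP-1 motif TGANTCA and the TATA box TATAAA. C/EBP factors and PU.1 drive the genes of the granulocyte and monocyte line. The promoters of the 3 genes that passed 2-fold in macrophage-like cells of the combination are shown, 5′ to 3′ on the strand of the gene, with capitals marking the matches. For S100a8 (chr3:90668821-90668977, plus strand) only the bases before an annotated exon of another transcript are printed, for S100a9 the stretch is chr3:90695722-90695971 (minus strand) and for Slpi chr2:164356508-164356757 (minus strand).
S100a8: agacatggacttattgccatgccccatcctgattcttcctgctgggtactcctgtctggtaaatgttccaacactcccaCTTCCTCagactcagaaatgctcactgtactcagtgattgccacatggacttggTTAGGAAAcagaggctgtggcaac
S100a9: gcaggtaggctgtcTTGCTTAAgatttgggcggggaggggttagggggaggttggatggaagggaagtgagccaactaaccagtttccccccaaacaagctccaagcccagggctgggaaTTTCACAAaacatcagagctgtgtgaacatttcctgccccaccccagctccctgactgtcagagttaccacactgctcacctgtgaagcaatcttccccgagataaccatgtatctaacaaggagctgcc
Slpi: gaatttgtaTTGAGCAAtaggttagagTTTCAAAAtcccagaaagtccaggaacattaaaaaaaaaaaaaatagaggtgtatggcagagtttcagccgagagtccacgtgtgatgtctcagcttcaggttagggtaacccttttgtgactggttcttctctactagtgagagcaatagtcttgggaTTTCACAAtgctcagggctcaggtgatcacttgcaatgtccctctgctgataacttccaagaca

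In S100a8 the capitals are 1 PU.1 match and 1 C/EBP match, 117 to 110 bases before the start, both read on the opposite strand. S100a9 held 2 C/EBP matches and Slpi 3, the first of which is read on the opposite strand, and none overlapped another motif. Over the 7 promoters, 4 held a C/EBP match (those 3 and Lcn2), against 36.8% of the 32851 promoters in the table, and 2 held a PU.1 match (S100a8 and Lcn2), against 10.6%. NF-kB matches stood in S100a4 and S100a11 (17.6% of all promoters), a TATA box in S100a8 and S100a4 (12.4%), AP-1 matches in S100a11 (6.75%), and none of these motifs in S100a6. These are matches of letters and not shown to be bound.

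A level is the UMI sum of a gene in a class and library, scaled to 1000000 UMIs of all genes there (CPM). Each gene has its own probes, so levels are compared within a gene. In such sums, fewer cells with a transcript and less of it per cell cannot be told apart. By the median over the libraries, 5 of the 8 genes were highest in neutrophil-like cells: S100a8, S100a9, Slpi, Lcn2 and S100a11. For S100a11 the range overlapped that of dendritic-like cells. S100a4 was highest in monocyte-like cells (overlapping dendritic-like cells), S100a10 in T cells (overlapping basophil-like cells) and S100a6 in the stromal or tumor cluster, at 1756 to 2033 CPM. In the plot of levels by class, the neutrophil genes and the widely expressed S100 genes separate by how far the classes lie apart.

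**Figure D1:**
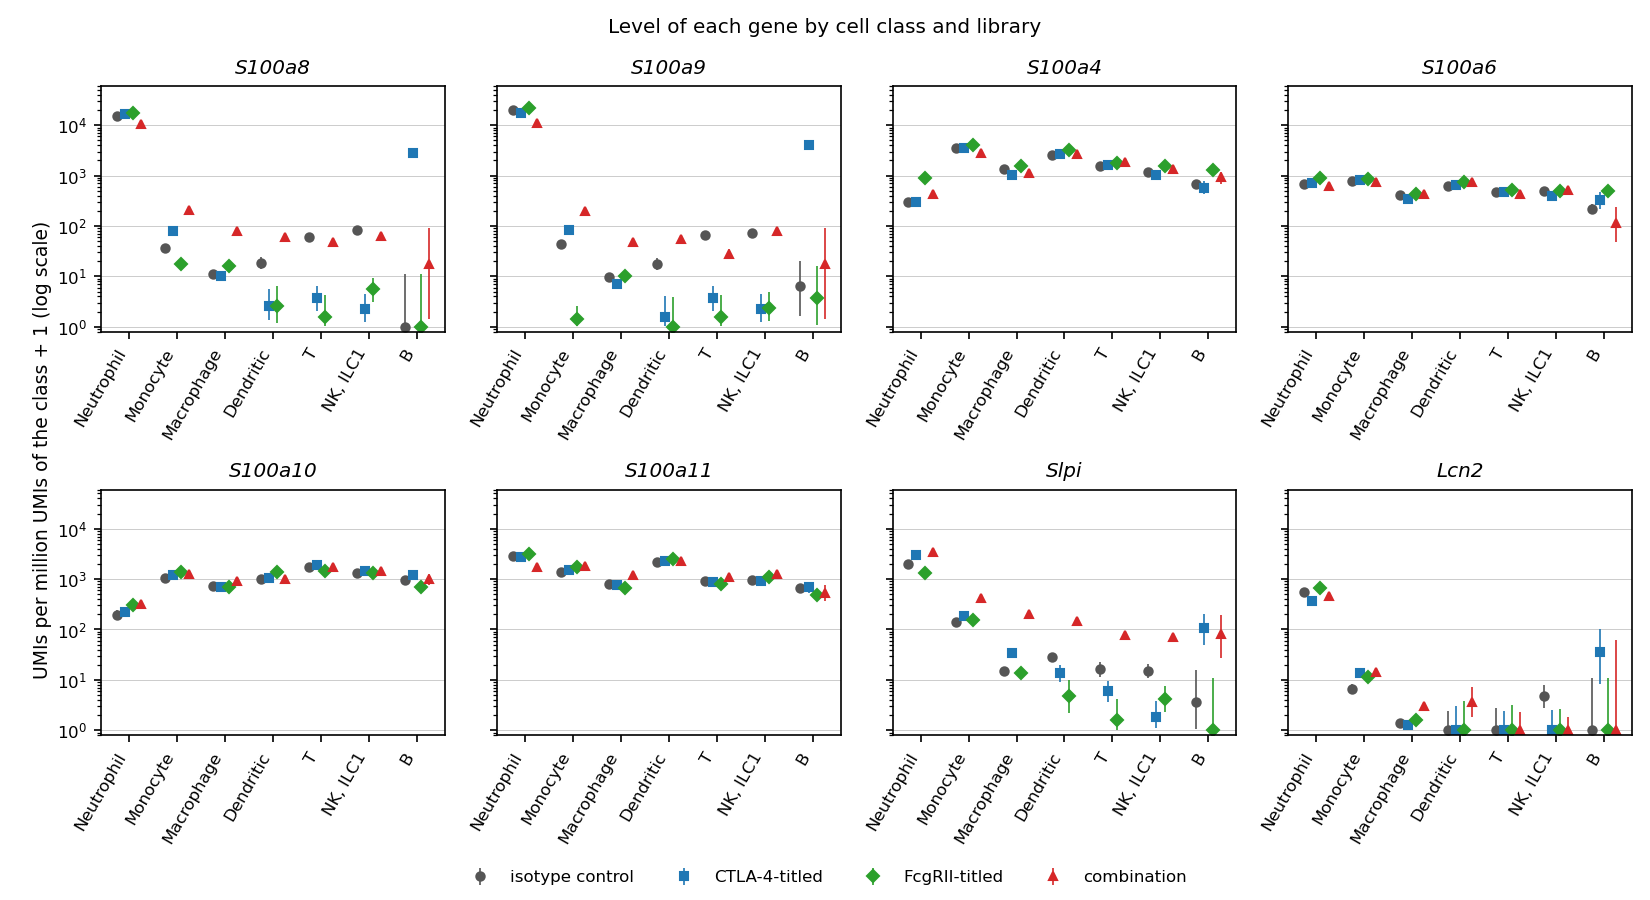
Level of each of the 8 genes (CPM + 1, log axis) in 7 of the cell classes, 1 point per library with its 95% counting interval. S100a8 and S100a9 lie at or above 10773 CPM in neutrophil-like cells and at or below 210 CPM in monocyte-like, macrophage-like and T cells, whereas S100a4, S100a6, S100a10 and S100a11 lie within a narrower band over the classes.

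Neutrophil-like cells held the highest calprotectin levels of all classes. S100a8 stood at 15454 (15084 to 15832), 16575, 17424 and 10773 (10633 to 10914) CPM, and S100a9 at 20494, 17551, 22449 and 10908 CPM, so the combination was the lowest of the 4 libraries for both. The combination-to-isotype ratio was 0.697 (0.678 to 0.717) for S100a8 and 0.532 for S100a9. S100a11 was also lower, at 2922, 2716, 3142 and 1775 CPM, a ratio of 0.607. Slpi went the other way, with 2031, 2989, 1339 and 3459 CPM and a ratio of 1.70 (1.59 to 1.83), and the combination held the highest level of the 4. Lcn2 stood at 565, 359, 669 and 454 CPM, where the combination lay inside the range of the other libraries.

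None of the 8 genes passed 2-fold between combination and isotype control in neutrophil-like cells, where 6.13% of 7420 genes with a mean of at least 10 CPM were at least 2-fold higher and 6.83% at least 2-fold lower. Their median ratio was 0.862, against 0.955 over all those genes. Against the FcgRII-titled library, with its 47 cells, Slpi was 2-fold higher at a ratio of 2.58 (7.75% of genes), and S100a9 at 0.486 and S100a4 at 0.481 were 2-fold lower (9.53%). S100a4, at 295, 293, 907 and 436 CPM, and S100a10, at 194, 221, 302 and 323 CPM, were low in these cells, and S100a4 was the gene of the 8 that passed 2-fold upward between the FcgRII-titled library and isotype control (9.5% of all genes did). With the cells that carried at least 1% macrophage-list UMIs left out, S100a4 stood at 154, 64.3, 70.5 and 196 CPM. S100a10 then stood at 88.8, 52.9, 28.2 and 164 CPM. Both genes were lower than with those cells in every library. S100a4 of the FcgRII-titled library, now from 10 UMIs, lay over 2-fold below both isotype control and the combination. Both S100a4 calls thus turned in direction. The same removal brought S100a8 to 21452, 20543, 24862 and 12835 CPM. Slpi went to 1988, 3614, 2299 and 4014 CPM, a combination-to-isotype ratio of 2.02. Against the FcgRII-titled library Slpi of the combination was then short of 2-fold. The S100a9 call against that library was narrowly lost without the top cell of each library, though not under the removal above.

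Neutrophil-like cells formed 2 clusters, 1 with G0s2 and Il1f9 among its leading genes (77, 75, 31 and 423 cells) and 1 with Retnlg and Lrg1 (33, 16, 16 and 35 cells). Retnlg marks neutrophils as they are in blood, and Lrg1 is a granule glycoprotein. S100a8 was 28856 CPM in the Retnlg cluster and 9720 in the G0s2 cluster over all libraries, and S100a9 was 37456 and 9729. S100a11 (4985 and 1645 CPM) was split in the same direction, and Slpi stood nearer together, at 2559 and 3118 CPM. The combination held the largest share of the cluster that is low in calprotectin, with 423 of its 458 neutrophil-like cells.

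Within the clusters the picture differed from that of the whole class. In the G0s2 cluster S100a8 stood at 8021, 11960, 8504 and 9741 CPM, and the combination lay inside the range of the other libraries, with a ratio to isotype control of 1.21. S100a9 stood at 9745, 11639, 11593 and 9251 CPM, where the combination was still the lowest, at a ratio of 0.949. Without the cells carrying macrophage RNA, S100a8 in this cluster was 10218 CPM in isotype control and 11265 in the combination, and the S100a9 ratio was 0.857. Slpi stood at 1772, 2724, 968 and 3588 CPM, a ratio of 2.02 (1.85 to 2.22), and Lcn2 at 141, 237, 419 and 396 CPM, a ratio of 2.81 (2.05 to 3.94). In the Retnlg cluster S100a8 stood at 31313, 44676, 35394 and 20484 CPM, and without the cells carrying macrophage RNA at 39443, 44676, 47602 and 36022 CPM, with 30, 16, 14 and 32 cells. Lcn2 was higher in the Retnlg cluster, at 1468, 1099, 1174 and 1003 CPM, and Slpi stood at 2584, 4600, 2086 and 2250 CPM there, a ratio of 0.871. Without the cells carrying macrophage RNA, Slpi in the Retnlg cluster stood at 2943, 4600, 3447 and 4041 CPM, and its ratio turned to 1.37.

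Macrophage-like cells of the combination had higher S100a8, S100a9 and Slpi than those of each other library. S100a8 stood at 10.2 (9.60 to 10.9), 9.21, 15.2 and 78.3 (76.7 to 80.0) CPM, a combination-to-isotype ratio of 7.65 (7.15 to 8.19). S100a9 stood at 8.76, 6.09, 9.16 and 46.8 CPM, a ratio of 5.34 (4.96 to 5.77). Slpi stood at 14, 32.9, 12.7 and 200 CPM, a ratio of 14.3 (13.5 to 15.1). For all 3 genes the combination lay above the other libraries. These 3 of the 7 genes with a mean of at least 10 CPM passed 2-fold, where 1.65% of 8563 genes did, and none was 2-fold lower (0.607%). Against the CTLA-4-titled library the ratios were 8.51, 7.69 and 6.07, and against the FcgRII-titled library 5.16, 5.11 and 15.7, with the same 3 genes past 2-fold (1.11% and 2.25% of all genes).

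Lcn2 was close to absent in macrophage-like cells, at 0.406, 0.272, 0.570 and 1.99 CPM from 37, 22, 53 and 215 UMIs, and fell under the filter of 10 CPM. At these low counts it too was highest in the combination, with a ratio to isotype control of 4.62 without the top cell of each library. The other S100 genes of the set stayed within 2-fold: S100a11 stood at 813, 775, 661 and 1178 CPM, a ratio of 1.45, and S100a10 at 740, 709, 700 and 927 CPM, a ratio of 1.25. S100a4 (1336, 1021, 1547 and 1142 CPM) and S100a6 (415, 350, 429 and 433 CPM) had ratios of 0.855 and 1.04. The only gene of the 8 past 2-fold between a single antibody library and isotype control in these cells was Slpi in the CTLA-4-titled library (0.187% of all genes).

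**Figure D2:**
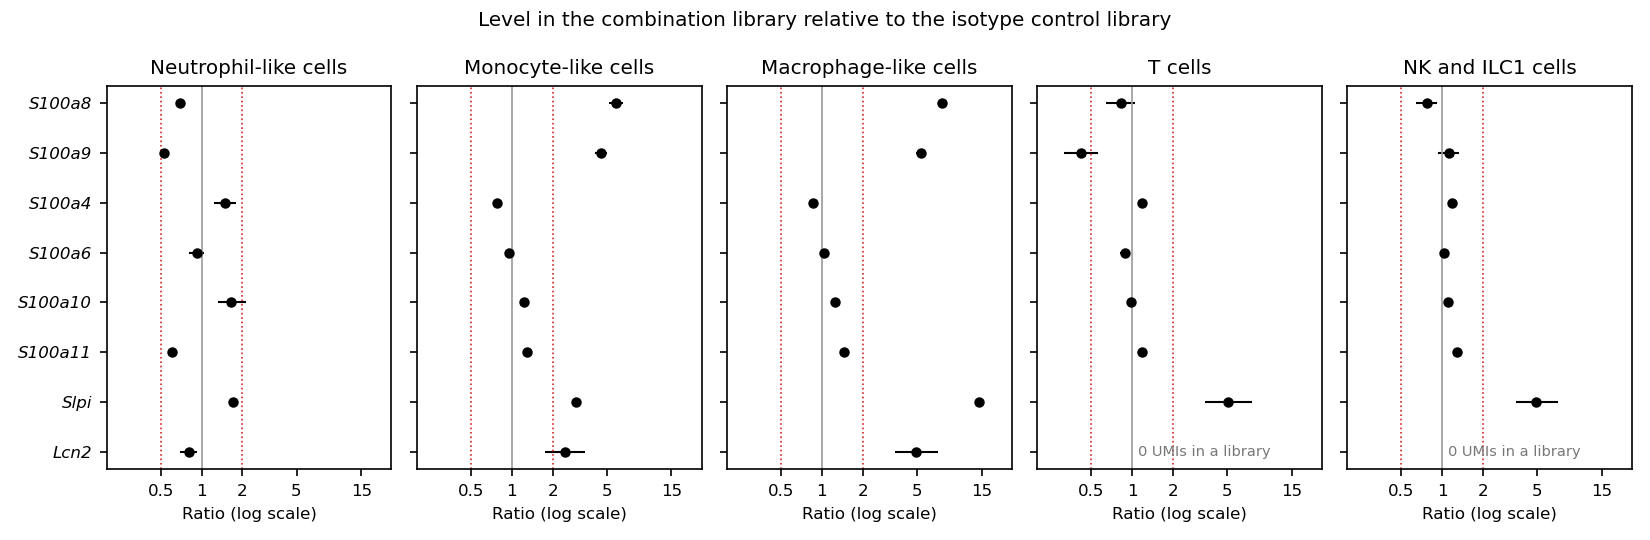
Ratio of the CPM in the combination to that in isotype control (log axis) for each gene in 5 classes, with 95% counting intervals. S100a8, S100a9, Slpi and Lcn2 lie above 2 in macrophage-like and monocyte-like cells, though Lcn2 in macrophage-like cells is under the filter of 10 CPM. No gene lies above 2 in neutrophil-like cells, and S100a4, S100a6, S100a10 and S100a11 lie between 0.5 and 2 in every class drawn.

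In monocyte-like cells S100a8 stood at 35.9, 76.9, 16.7 and 210 CPM and S100a9 at 43.4, 81.8, 0.447 and 197 CPM, with ratios of 5.86 and 4.53. Slpi stood at 139, 187, 152 and 412 CPM, a ratio of 2.95 (2.77 to 3.14), and Lcn2 at 5.52, 12.6, 10.5 and 13.6 CPM, a ratio of 2.45 (1.76 to 3.45). These 4 of 8 genes passed 2-fold, where 1.89% of 8055 genes did. Against isotype control S100a8 and Lcn2 were also past 2-fold upward in the CTLA-4-titled library (0.211% of genes), calls that were lost without the top cell of each library (ratios of 1.65 and 1.78), and S100a8 and S100a9 downward in the FcgRII-titled library (0.124%). The Lcn2 level of the combination was close to that of the CTLA-4-titled library, at a ratio of 1.08 (0.798 to 1.46). In the CTLA-4-titled library 1 cell held 193 of the 477 S100a8 UMIs and 285 of the 507 S100a9 UMIs. Without the top cell of each library the S100a8 level was 27.8, 45.9, 12.8 and 185 CPM and the Lcn2 level 4.54, 8.08, 8.06 and 12 CPM, with combination-to-isotype ratios of 6.65 and 2.64. The Lcn2 ratio fell below 2 under 3 of 10 alternatives, to between 1.60 and 1.70. Among the 10 is 1 that takes cells from other classes only and could not move this ratio. In a grouping chosen after the values were seen, 30 of 624 combination cells had at least 3 S100a8 UMIs and an S100a9 UMI. They held 1431 of the 1692 S100a8 and 1442 of the 1580 S100a9 UMIs. Of these 30 cells 90% carried a UMI of Cxcr2, G0s2, Hdc or Retnlg, against 13.9% of cells with no S100a8 UMI. The 30 cells were also deeper, with a median of 19891 UMIs against 9341. In isotype control 9 cells with both transcripts at those minimums held 307 of the 364 S100a8 UMIs.

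Classical monocytes circulate to tissue and nonclassical ones patrol vessels. In the monocyte-like cluster led by Chil3 and Plac8, markers of classical monocytes, S100a8 stood at 7.11, 39.3, 14.2 and 151 CPM and S100a9 at 1.26, 0.289, 0 and 142 CPM. In the cluster led by Ace and Adgre4, markers of nonclassical monocytes, S100a8 stood at 61.6, 124, 20.7 and 339 CPM and S100a9 at 81.0, 185, 1.15 and 316 CPM. Outside the combination, then, S100a9 was close to 0 in the first of these clusters. Few cells held the S100a8 UMIs of the second cluster, where 9, 7, 4 and 17 cells had at least 3. The top 1% of cells held 32.4%, 91.2%, 35.9% and 54.7% of the S100a8 UMIs in the first cluster. In the second cluster they held 87.6%, 92.7%, 66.7% and 48.9%. Slpi was similar in both, at 138, 215, 140 and 414 CPM and at 140, 150, 173 and 406 CPM.

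Macrophage-like clusters differed in these genes. Nos2 is the inducible nitric oxide synthase of activated macrophages, and the cluster with Nos2 and Cxcl3 among its leading genes had the highest S100a8 and Slpi over all libraries, at 131 and 527 CPM. It also led within each library, except for Slpi in the FcgRII-titled library, where 24 cells of a cluster with Retnla and Lyve1 stood at 393 CPM. Slpi came next in the Thbs1 and Spp1 cluster at 240 CPM and was lowest in a dividing cluster at 6.31 CPM. S100a9 had no such order across libraries. It was highest in the Gbp2b and Dnase1l3 cluster in the FcgRII-titled library and the combination, at 42.9 and 110 CPM, and in the Hspb1 and Adm cluster in isotype control and the CTLA-4-titled library, at 24.3 and 34.0 CPM. Few cells set this order in the single antibody libraries. In the Gbp2b and Dnase1l3 cluster of the FcgRII-titled library 2 cells had at least 3 S100a9 UMIs, with 483 UMIs in all. In the Hspb1 and Adm cluster of the CTLA-4-titled library 1 cell did, with 354 UMIs in all.

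In the Nos2 cluster (117, 158, 117 and 346 cells) S100a8 stood at 55.1, 41.3, 83.8 and 206 CPM and S100a9 at 16.9, 0.945, 0 and 33.1 CPM. The combination-to-isotype ratio was 3.75 (3.16 to 4.48) for S100a8 and 1.95 for S100a9, with Slpi at 100, 426, 102 and 848 CPM and a ratio of 8.47. In the CTLA-4-titled library 131 S100a8 UMIs stood against 3 of S100a9, and in the FcgRII-titled library 228 against 0. The Slpi level of the Thbs1 and Spp1 cluster was 25.5, 68.2, 22.5 and 732 CPM, so there too the combination was the highest and the CTLA-4-titled library next.

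Macrophage-like cells were compared with neutrophil-like cells gene by gene, since RNA of 1 source keeps its genes in 1 ratio. UMIs per macrophage-like cell were taken as a percent of UMIs per neutrophil-like cell of the same library. Such percents also move with the level in neutrophil-like cells, where Retnlg stood at 1748, 508, 1467 and 249 CPM. S100a8 came to 0.349%, 0.323%, 0.345% and 4.10% (4.00 to 4.21), and S100a9 to 0.225%, 0.202%, 0.162% and 2.42% (2.35 to 2.50). Of the neutrophil-list genes with at least 100 UMIs in neutrophil-like cells of every library, a minimum chosen after the values were seen, the lowest were Retnlg at 0.109%, 0.170%, 0.0581% and 1.43%, G0s2 at 0.324%, 0.288%, 0.108% and 2.23%, Cxcr2 at 0.422%, 0.344%, 0.223% and 2.86%, and Hdc at 0.559%, 0.491%, 0.259% and 3.62%. The medians over the 12, 12, 11 and 13 list genes with at least 20 UMIs in neutrophil-like cells were higher, at 1.78%, 6.70%, 4.26% and 5.98%, where for 12 genes the lower of the 2 middle values was taken. Of those list genes, 1, 1, 2 and 2 lay below S100a9 and 2, 2, 4 and 6 below S100a8. Slpi stood at 3.63%, 6.41%, 3.76% and 32.6%, with 7, 5, 5 and 11 list genes below it, and Lcn2 at 0.378%, 0.440%, 0.337% and 2.48%, with 2, 3, 4 and 2. The list as a whole summed to 283, 311, 233 and 398 CPM in macrophage-like cells, with 1, 1, 2 and 1 of its 15 measured genes at 0 (Ly6g, then Camp, then Camp and Ngp, then Ngp). The highest percents of the list were Trem1 in the first 3 libraries (81.6%, 74.2% and 74.2%) and Mmp8 in the combination (148%). The part of neutrophil RNA in the levels of the 8 genes was not tested.

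**Figure D3:**
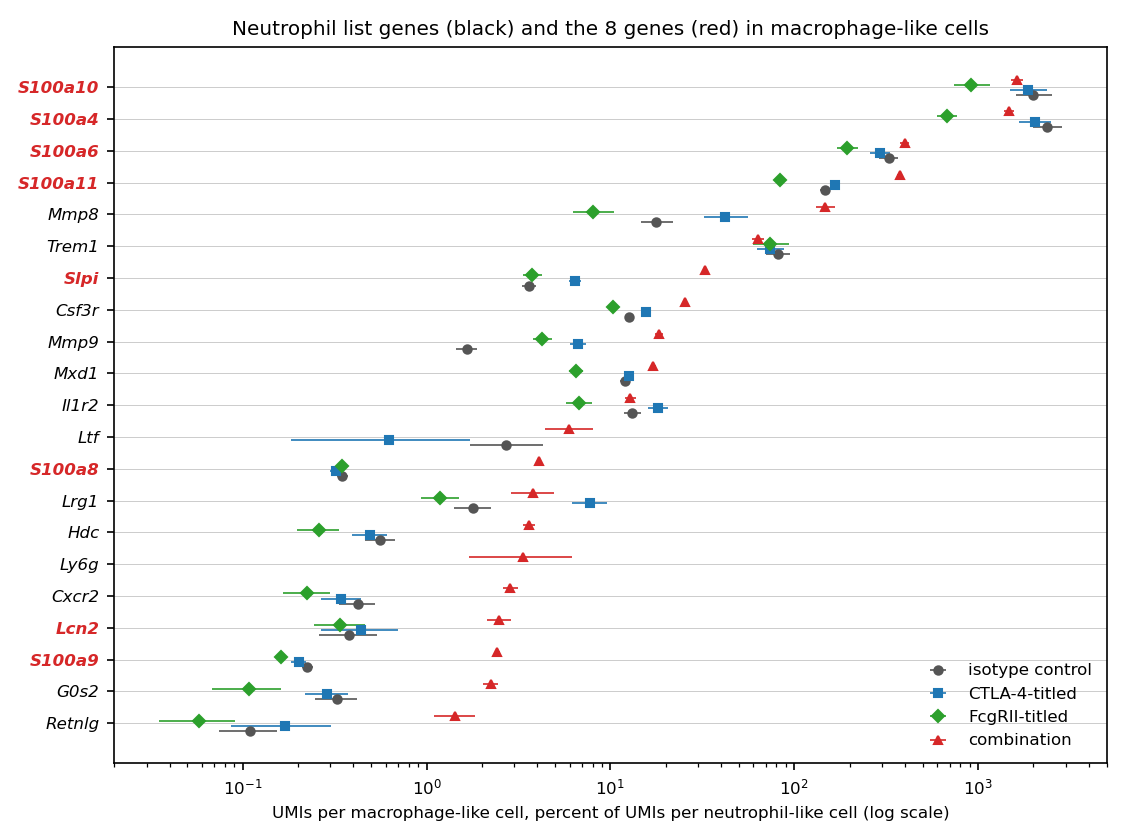
UMIs per macrophage-like cell as a percent of UMIs per neutrophil-like cell of the same library (log axis) for the 8 genes and the neutrophil list, 1 color per library, with 95% counting intervals and only where neutrophil-like cells held at least 20 UMIs and macrophage-like cells any. S100a9 lies at the low end in each library, Slpi lies higher, and the combination lies above the other libraries for S100a8, S100a9, Lcn2, Retnlg, G0s2, Cxcr2 and Hdc. The percents also depend on the level in neutrophil-like cells, which differs between libraries.

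The ratio of S100a8 to S100a9 gave a second view. Neutrophil-like cells held 0.754, 0.944, 0.776 and 0.988 S100a8 UMIs per S100a9 UMI, 0.906 (0.894 to 0.918) over all. Macrophage-like cells held 1.17, 1.51, 1.66 and 1.67, or 1.60 (1.56 to 1.65) over all, so S100a8 was in excess of the neutrophil proportion. The ratio was 6.91 (6.14 to 7.81) in the Nos2 cluster and 5.67 (4.71 to 6.87) in the Thbs1 and Spp1 cluster over all libraries, and 6.24 (5.48 to 7.13) and 6.99 (5.41 to 9.14) in the combination. In the Gbp2b and Dnase1l3 cluster of the combination the ratio was 0.883, inside the range of the neutrophil-like cells.

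**Figure D4:**
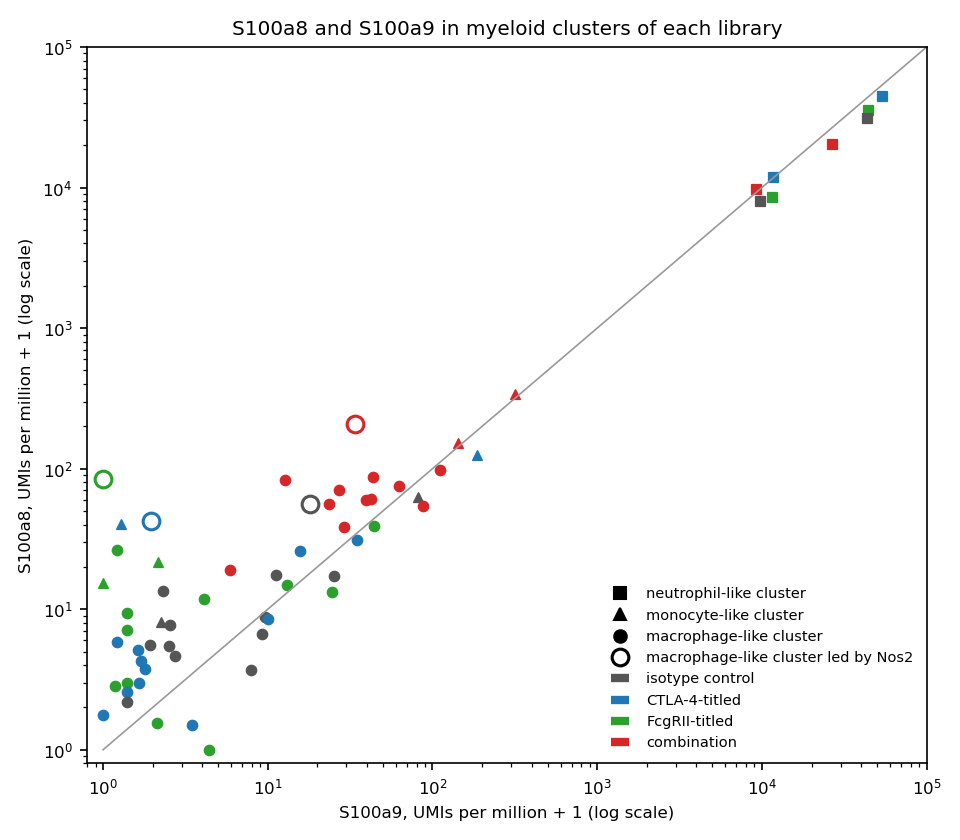
S100a8 against S100a9 (CPM + 1, log axes, with the line of equal levels) in the neutrophil-like, monocyte-like and macrophage-like clusters, 1 point per cluster and library. Neutrophil-like clusters lie near equal levels at the top, and the macrophage-like cluster with Nos2 lies on the S100a8 side, at 206 against 33.1 CPM in the combination.

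Calprotectin UMIs were gathered in few macrophage-like cells. The top 1% of cells held 60.1%, 68.2%, 61.7% and 50.9% of the S100a8 UMIs and 89.7%, 95.7%, 99.3% and 75.3% of the S100a9 UMIs. Slpi was less gathered in the combination, at 33.8%, and the top 1% held 5.48% to 9.54% of S100a4, S100a6, S100a10 or S100a11. Cells were then grouped by their S100a8 UMIs, a grouping chosen after these values were seen. Neutrophil genes were read as a UMI of Cxcr2, G0s2, Hdc or Retnlg. These were picked for low levels in macrophage-like relative to neutrophil-like cells of every library here, which partly sets the low shares below. Cells with at least 3 S100a8 UMIs and an S100a9 UMI numbered 18, 4, 7 and 130, and 69.8% (62.0 to 76.8) of them carried a UMI of Cxcr2, G0s2, Hdc or Retnlg. Cells with at least 3 S100a8 UMIs and no S100a9 UMI numbered 48, 38, 82 and 368, and 7.84% (5.71 to 10.4) carried one, against 2.67% (2.41 to 2.95) of cells with no S100a8 UMI and 90.7% of neutrophil-like cells. The first set had a median of 36327 UMIs per cell and the second 27422, against 18863 in cells with no S100a8 UMI. A Nos2 UMI was found in 74.8% of the first set, 74.1% of the second and 30.8% of cells with no S100a8 UMI, and at least 3 Slpi UMIs in 64.8%, 41.4% and 4.04%. By library the Nos2 share of the second set was 54.2%, 65.8%, 39.0% and 85.3%. In cells with no S100a8 UMI it was lower in each library, from 17.2% in the FcgRII-titled library to 62.2% in the combination. The pooled contrasts mix libraries. The combination held 368 of the 536 cells of the second set but 2905 of the 14246 with no S100a8 UMI. Within the combination the neutrophil-gene share was 10.1% in the second set and 5.54% without S100a8, and the Slpi share 50.5% and 11.4%. The Slpi share was also higher in the second set of each other library. The neutrophil-gene share was 6.25% against 2.14% in isotype control, from 3 cells of the second set. It was 2.63% against 2.55% in the CTLA-4-titled library and 1.22% against 1.14% in the FcgRII-titled library. In these 2 libraries it rested on 1 cell of the second set each.

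**Figure D5:**
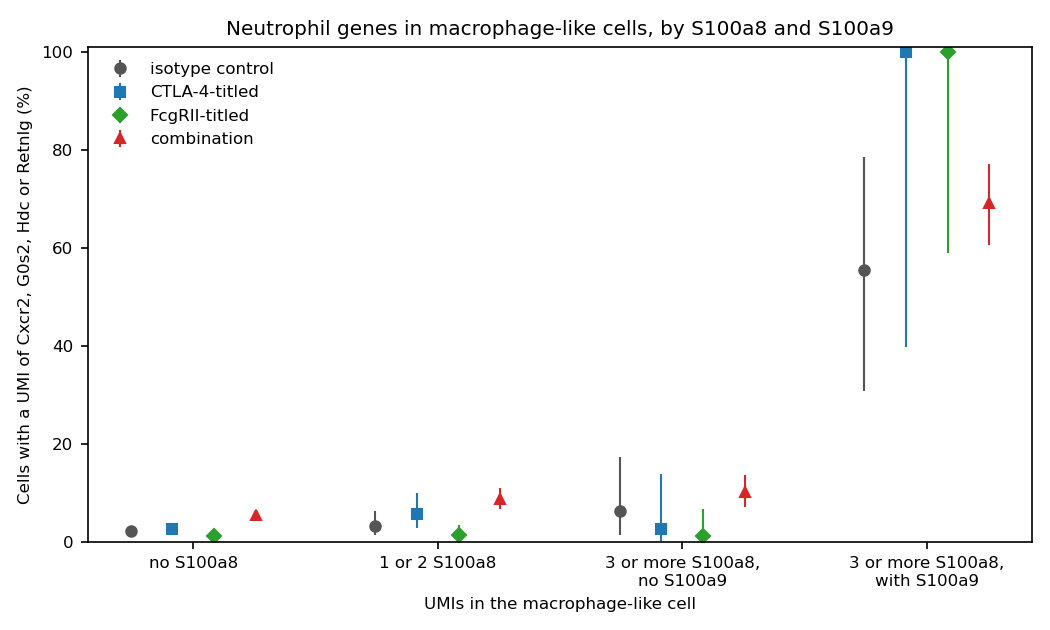
Percent of macrophage-like cells with a UMI of Cxcr2, G0s2, Hdc or Retnlg, by their S100a8 and S100a9 UMIs and by library, with exact binomial 95% intervals. Cells with both transcripts stand at 69.8% over all libraries and cells with S100a8 alone at 7.84%.

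Macrophage-like cells with no UMI of the neutrophil list numbered 450, 284, 483 and 288, and their S100a8 stood at 4.35, 2.79, 8.58 and 15.7 CPM and S100a9 at 2.97, 0.762, 1.00 and 4.96 CPM. The combination was still highest, at a lower level than in the whole class. These cells were 10.1%, 7.81%, 11.6% and 6.89% of the class. The list includes Trem1, at 64.0, 52.7, 59.5 and 40.3 CPM in macrophage-like cells. The filter thus also removes cells for genes not confined to neutrophil-like cells. In droplets with no cell of another library the levels were 9.28, 12, 17.3 and 70.0 CPM for S100a8 and 7.74, 8.99, 11.7 and 44.2 CPM for S100a9. Macrophage-like cells that shared a droplet with a neutrophil-like cell of another library numbered 48, 42, 66 and 15 and held 1, 0, 6 and 60 S100a8 UMIs. Their S100a8 level was 1.00, 0, 3.72 and 99.3 CPM, against 10.3, 9.32, 15.4 and 78.2 CPM in the other macrophage-like cells of the same library.

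Shares of cells with an S100a8 or S100a9 UMI were taken after reducing each cell to 7705 UMIs, the 10th percentile of the class, with shallower cells left out. They came to 4.79% (4.14 to 5.52), 3.69%, 5.27% and 21.3% (20.0 to 22.6) of macrophage-like cells, and 9.17%, 7.51%, 10.3% and 36.4% without the reduction. The combination-to-isotype ratio of these shares was 4.45 (3.82 to 5.19). At a depth of 1908 UMIs in all classes, the shares were 1.65%, 1.37%, 1.76% and 8.76% of macrophage-like cells and 1.08%, 0.968%, 0.125% and 4.93% of T cells, a class that should lack both genes. The medians before reduction were 16661 to 21885 UMIs in macrophage-like and 3890 to 5025 in T cells. The macrophage-like share was the higher in each library, with intervals in the combination of 7.91 to 9.65 and 2.87 to 7.94, and no test between classes was made. Neutrophil-like cells stood at 87.3% to 96.3%. For Slpi the shares at the reduced depth of the class were 4.18%, 6.48%, 3.27% and 23.3% of macrophage-like cells.

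Lymphoid cells held little of the neutrophil genes, and single cells decided several levels. In T cells S100a8 stood at 58.3, 2.68, 0.583 and 48.0 CPM and S100a9 at 65.1, 2.68, 0.583 and 27.3 CPM. In isotype control 1 cell held 116 of the 120 S100a8 UMIs and 130 of the 134 S100a9 UMIs. Without the top cell of each library isotype control had 1.95 CPM of both genes, and the combination 33.7 and 18.1 CPM, so the ratios moved from 0.824 and 0.419 to 17.3 and 9.28. NK and ILC1 cells showed the same: S100a8 stood at 80.8, 1.2, 4.51 and 62.2 CPM, with 212 of 219 UMIs in 1 cell of isotype control and 184 of 267 in 1 cell of the combination, and 2.59 and 19.6 CPM without them. All 242 S100a8 UMIs in B cells of the CTLA-4-titled library were in 1 of its 14 cells. In 28 basophil-like cells of the combination S100a8 stood at 3209 CPM, with 126 of its 225 UMIs in 1 cell.

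Slpi was the gene of the 8 that passed 2-fold upward in T cells (15, 4.97, 0.583 and 76.3 CPM, ratio 5.07, with 3.47 to 7.65) and in NK and ILC1 cells (14, 0.799, 3.16 and 69.2 CPM, ratio 4.94), where 1.86% and 0.931% of all genes did. In isotype control 29 of the 38 Slpi UMIs of NK and ILC1 cells were in 1 cell, and without the top cell of each library the Slpi ratio was 13.7 there and 5.74 in T cells. Other genes were also higher in T cells of the combination, with 4 of 7 neutrophil-list genes (Mmp8, Il1r2, Csf3r and Mmp9) and 3 of 4 iron genes (Hmox1, Fth1 and Slc11a1) past 2-fold upward. Cd36, a macrophage and endothelial scavenger receptor, stood at 5.83, 18.4, 8.74 and 147 CPM in T cells, a ratio of 25.3, and Hmox1 had a ratio of 7.30. The part of myeloid RNA in the Slpi level of T cells was not tested. S100a9 was over 2-fold lower in T cells (1.47% of genes), the value decided by 1 cell. With cells of at least 1% macrophage-list UMIs left out, Slpi stood at 16.1, 3.16, 1.40 and 67.4 CPM in T cells but at 3.84, 0.829, 2.06 and 9.86 CPM in NK and ILC1 cells. Lcn2 had 0 UMIs in T cells of all 4 libraries and 10 UMIs, all in 1 cell, in NK and ILC1 cells of isotype control. S100a4, S100a6, S100a10 and S100a11 were common in T cells (S100a10 at 1754, 1894, 1469 and 1726 CPM) and had ratios of 0.894 to 1.19 there. In dendritic-like cells S100a8, S100a9 and Slpi passed 2-fold (ratios of 3.32, 3.18 and 5.41), where 2.1% of genes did. S100a8 stood at 17.7, 1.61, 1.54 and 58.7 CPM there, from 48, 3, 2 and 112 UMIs, with 41 of the 48 and 57 of the 112 in 1 cell each.

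Of the pathway lists, which were chosen with earlier results known, the neutrophil list had 0 genes 2-fold higher and 4 lower (Ngp, Retnlg, Lrg1 and Mmp8) of 14 in neutrophil-like cells, with a median ratio of 0.757, where 6.13% of all genes were higher and 6.83% lower. Retnlg stood at 1748, 508, 1467 and 249 CPM, a ratio of 0.142. Of the receptors and partners 2 of 10 were lower (Anxa1 and Ager) and of the iron genes 2 of 6 (Hp and Tfrc), whereas Fth1, the ferritin heavy chain, stood at 12359, 17523, 11105 and 20411 CPM, a ratio of 1.65. In monocyte-like cells 6 of 9 neutrophil-list genes were higher (1.89% of all genes), with a median of 2.52 against 0.944 over all genes. They were led by Cxcr2, the chemokine receptor of neutrophils, at 3.35, 5.97, 1.56 and 33.8 CPM, and by Hdc and Mmp9, and the part of neutrophil RNA in the calprotectin level of that class was not tested. In macrophage-like cells 2 of 6 were higher (1.65% of all genes), Mmp9 (4.28, 17.9, 14.3 and 36.8 CPM) and Mmp8, with a median of 1.43 against 0.928.

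Of the receptors and partners 1 of 9 was higher in macrophage-like cells (1.65% of all genes), the scavenger receptor Cd36, at 91.3, 131, 139 and 376 CPM, and none was lower (0.607%). Cd36 was also past 2-fold in T cells, as given above, and in NK and ILC1 cells, at a ratio of 3.20. Tlr4, Bsg, Emb and the annexins were among the 8 that stayed within 2-fold. The proteases and inhibitors and the other S100 genes had 0 genes past 2-fold in any of the 5 classes. The other S100 genes were sparse, with 2 of 10 (S100a1 and S100a13) passing the filter in each class. Of the iron genes Fth1 was higher in macrophage-like cells (1 of 5) and Fth1 and Hmox1 in monocyte-like cells (2 of 4). Of the regulators none of 7 or 8 passed 2-fold in the 3 myeloid classes, and in T cells Tnf was higher and Il10 lower, at 99.5, 3.82, 56.0 and 4.84 CPM.

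Profiles of log2(CPM + 1) over 7 classes and 4 libraries, 28 points that share libraries, gave the genes most like each member among 7546 genes. S100a8 was most like S100a9 (r = 0.97), Cxcr2 (0.95) and Il1f9 (0.94), and Slpi most like Slfn4 (0.91) and S100a8 (0.90). Lcn2 was most like Nlrp12 (0.96), Il1f9 (0.95) and Ndel1 (0.94). S100a4 was most like Glud1 (0.92), Crip1 and Ppp1r9b (both 0.91), and S100a10 most like E2f4, Eif4e2 and Tmsb10 (all 0.94). S100a6 was most like Tet2 (0.92) and S100a11 most like Mapk13 (0.91). S100a8 and S100a10 ran opposite to each other, at r = -0.68.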

How the data were processed

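Fixed CD45+ tumor cells were sequenced as 4 Chromium Flex libraries, 1 per group. The authors made the deposited counts with Cell Ranger at default settings: UMI counts of each gene in each called cell, as whole numbers and not normalized. The file headers name version 7.2.0, the submitters' processing notes version 7.0.0 and mm10. Depth was 129151823 to 196362818 UMIs per library.

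Cells with at least 500 genes and at most 10% mitochondrial UMIs were kept, and the 5% with the highest Scrublet scores (scanpy 1.11.5) in each library were left out, since its automatic calls marked almost none. SCTransform, integration on 3000 features less the 8 members, 30 components and resolution 0.8 followed the article's methods, in Seurat 5.3.0 with sctransform 0.4.2 and R 4.3.3. Sums, exact Poisson, conditional and binomial intervals and log intervals for ratios of shares came from scipy 1.17.1, pandas 2.3.3 and numpy 2.4.6 under Python 3.11.15. No test between groups was made. Ratios were read past 2-fold among genes with a mean of at least 10 CPM in the class. The ratio code was tested on simulated data. Intervals treat UMIs as independent, although UMIs of 1 cell are not.

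The 8 members, the marker lists and the pathway lists were chosen with earlier results of these data known. Genes named from the lists are, per class, the 3 with the highest and the 3 with the lowest ratio of combination to isotype control, and those named as past 2-fold. For likeness, the 3 genes with the highest r to a member were taken. Alternatives were other features, integration, resolution, components, doublet and cell filters, scalings, depths and UMI minimums. Those that leave out cells with macrophage RNA or take each neutrophil-like cluster by itself were added after the data were seen. Mixed clusters were left out.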

Additional observations from a re-analysis of the deposited data

How the results depend on the processing

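No paired analysis was possible because each group is 1 library. The genes past 2-fold in macrophage-like cells (S100a8, S100a9 and Slpi) were the same 3 under every alternative run. The alternative without cells of macrophage RNA takes no cell from macrophage-like or monocyte-like cells. Ratios between libraries within these 2 classes could therefore not move under it, though it is counted among their alternatives. The number of members highest in neutrophil-like cells was 5 except under median of ratios scaling, where S100a6 made it 6. In monocyte-like cells it was 4, or 3 without Lcn2 with the members kept among the features, without integration, with 20 components and with a mean over cells. The number in neutrophil-like cells went from 0 to 1 with the members kept among the features (S100a10), and also to 1 with 10% of cells left out as doublets, with cells of macrophage RNA left out or with a mean over cells (Slpi each time). In T cells it went from 1 to 3 with the members kept among the features (S100a8, S100a9 and Slpi), where the S100a9 ratio turned from 0.419 to 2.05; 1 cell decides these values. In NK and ILC1 cells it went from 1 to 0 with the members kept, at resolution 1.2, with 10% doublets, with cells of macrophage RNA left out and with a mean over cells. The Slpi ratio there ranged from 2.57 to 9.70 over these alternatives, and where the call was lost its mean level fell under the filter of 10 CPM. The ratio of shares with an S100a8 or S100a9 UMI (4.45) was 5.31 at 1 depth for all classes and 8.42 for 3 UMIs together. The level of S100a8 in macrophage-like cells of the combination (4.10% of neutrophil-like cells) was 4.34% without integration, 3.37% with 10% doublets and 3.58% with the stricter cell filter. It was 4.29% without cells of macrophage RNA and 0.423% in macrophage-like cells with no neutrophil-list UMI. That last construction removes cells holding a UMI of any list gene, Trem1 included. The causes of the other moves were not tested. Among single genes, 0 of 80 alternatives in macrophage-like cells, 3 of 80 in monocyte-like cells (Lcn2 each time) and 8 of 96 in neutrophil-like cells crossed 2-fold. The S100a8 and S100a9 ratios in monocyte-like cells ranged from 4.73 to 16.5 and from 3.25 to 36.6. Requiring 50 CPM moved the share of all genes past 2-fold from 6.13% to 4.44% in neutrophil-like cells and from 0.931% to 0.587% in NK and ILC1 cells. Levels near 1 CPM rest on few UMIs, and Lcn2 outside neutrophil-like cells is limited by depth.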
